A study of Mus musculus with 6 samples.

Results

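Proliferation genes and the cell cycle inhibitor gene Cdkn1c were compared between adrenal glands of PACAP -/- mice and of PACAP +/+ mice, both on the 129XC57BL6 F2 background. PACAP is the neuropeptide that the splanchnic nerve releases onto the chromaffin cells of the adrenal medulla. The 9 genes (Cdkn1c, Ccnd2, Pcna, Mcm7, Top2a, Aurkb, Birc5, Plk1 and Mki67) were taken by name, with earlier results of these data known. Every cDNA clone annotated with one of the 9 genes was used. They had 18 of the 36022 clones on the array, 1 spot each, and 17 clones covering all 9 genes had usable ratios on at least 4 of 6 arrays. The genes of the clones come from annotation, and no insert sequence was checked. On each array the PACAP -/- RNA carried the dye Cy3 (green) and the PACAP +/+ RNA the dye Cy5 (red), with no exchange of dyes, so a dye effect of a clone and an effect of genotype cannot be told apart. Age, sex and the number of animals behind each RNA are not given in the sources used here. The 6 arrays are numbered as repeats, so p-values measure the spread between arrays, which may be technical in part.

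A cell enters division when D-type cyclins such as cyclin D2 (Ccnd2) activate cyclin-dependent kinases. p57Kip2, the product of Cdkn1c, inhibits those kinases. Cdkn1c is imprinted and expressed from the maternal allele, and mutations of its human counterpart are known in syndromes of abnormal growth, one of which includes small adrenal glands. PCNA, the sliding clamp, and MCM7, a subunit of the replicative helicase, serve DNA replication, and topoisomerase II alpha (Top2a) untangles DNA before chromosomes separate. Aurora B (Aurkb) and survivin (Birc5) are partners in the chromosomal passenger complex, Plk1 drives several steps of mitosis, and Ki-67 (Mki67) coats mitotic chromosomes and is the common marker of cycling cells. In bulk RNA, fewer cells of a type and less RNA per cell cannot be told apart.

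Many late cell cycle genes share a short promoter element, TTTGAA, known as the cell cycle genes homology region. It was searched on both strands of the 250 bases before the start of the 6 member genes with a promoter in the RefSeq table of GRCm38.p6, namely Mki67, Top2a, Pcna, Mcm7, Plk1 and Birc5. Mki67 and Top2a held 2 matches each, and Pcna, Plk1, Birc5 and both Mcm7 starts held none. Among 32851 promoter windows, 16% had a match. The Mki67 window (chr7:135716380-135716629, minus strand) and the Top2a window (chr11:99024190-99024439, minus strand) are shown 5′ to 3′ because their clones had opposite signs, with each match in capitals, as TTTGAA or as its reverse complement.
Mki67: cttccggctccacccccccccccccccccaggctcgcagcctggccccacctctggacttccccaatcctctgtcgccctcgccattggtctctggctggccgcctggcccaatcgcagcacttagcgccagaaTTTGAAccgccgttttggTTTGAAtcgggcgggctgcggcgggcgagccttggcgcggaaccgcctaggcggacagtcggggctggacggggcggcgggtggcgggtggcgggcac
Top2a: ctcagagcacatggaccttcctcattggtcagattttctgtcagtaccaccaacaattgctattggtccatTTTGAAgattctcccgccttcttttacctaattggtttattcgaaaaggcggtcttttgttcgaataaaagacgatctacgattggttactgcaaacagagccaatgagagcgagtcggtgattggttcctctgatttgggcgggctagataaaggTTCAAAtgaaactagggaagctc
The matches began 116 and 98 bases before the start in Mki67, and 179 and 23 bases before it in Top2a. The E2F-like motif TTTCGCGC was in none of these windows (0.256% of all windows). CCAAT, which 33.8% of all windows held, occurred 6 times in Top2a and 3 times in Mki67. Pcna and Plk1 held it 1 time each and both Mcm7 starts held it (2 and 1 matches), while Birc5 did not. A match of letters says nothing of whether a factor binds there, and other forms of these motifs were not searched.

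The quality filter kept between 26026 and 31947 clone spots an array. The median signal, as a multiple of the local background, was 5.39 to 7.07 in the green channel of PACAP -/- RNA and 1.15 to 4.79 in the red channel of PACAP +/+ RNA, lowest in red on arrays 2 and 4. Log2 ratios of PACAP -/- over PACAP +/+ were corrected on each array by global loess, a smooth fit to signal strength, and tested against 0 with limma, a clone being called where the Benjamini-Hochberg adjusted p over all 28710 tested clones was below 0.05. The ratios also depended on where a clone was printed: the 48 print blocks, each laid down by 1 pin, accounted for 46.9% of the variance of the mean ratio, with block means from -0.57 to 0.56. The ratios of all tested member clones, and most other results, are therefore given also after print-tip loess, which corrects each block separately. The clone of Adcyap1, the targeted gene, passed the filter on 2 arrays and was not tested. Without the filter its ratio ran from -1.27 to 0.93 (mean -0.18, adjusted p = 0.604), which gives no check of the genotype.

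Cdkn1c was higher in PACAP -/- glands with both normalizations of the deposited intensities, but was not called in the authors' value table, centred on each array's median (0.38, adjusted p = 0.54). Its 1 clone (AU040767, chromosome 7) had green intensities of 1569 to 3826 for PACAP -/- (median 3283) and red intensities of 116 to 1924 for PACAP +/+ (median 606), in arbitrary units before normalization. The PACAP -/- intensity exceeded the PACAP +/+ intensity on all 6 arrays, although the ranges overlapped and green was the stronger channel overall. After global loess the log2 ratio was 0.51, 1.34, 0.75, 1.92, 0.99 and 1.64 on arrays 1 to 6, highest on array 4 and lowest on array 1. The mean was 1.19 ± 0.17 (SE, n = 6), or 2.29-fold, with a 95% interval of 0.82 to 1.56 and adjusted p = 0.000806. Print-tip loess gave 0.36, 1.32, 0.73, 1.65, 0.85 and 0.95, a mean of 0.98 ± 0.15 (1.97-fold, adjusted p = 0.0227). The clone lay in block 31, whose mean ratio of 0.18 was far smaller than its own.

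The Cdkn1c call held in all 6 fits with global loess that left out 1 array, at 1.05 to 1.33. After print-tip loess the ratio stayed at 0.84 to 1.10 but the call was lost without array 2, 3, 4 or 6 (highest adjusted p = 0.0745). In those print-tip fits between 1 and 19 clones of the whole array passed, and no member clone was among them. With arrays 2 and 4, those of weakest red signal, both left out, Cdkn1c averaged 0.97 (adjusted p = 0.0115), or 0.72 with print-tip loess (adjusted p = 0.0422). It was then the only one of the 17 clones called, among 81 of 29387 clones (0.276%).

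**Figure D1:**
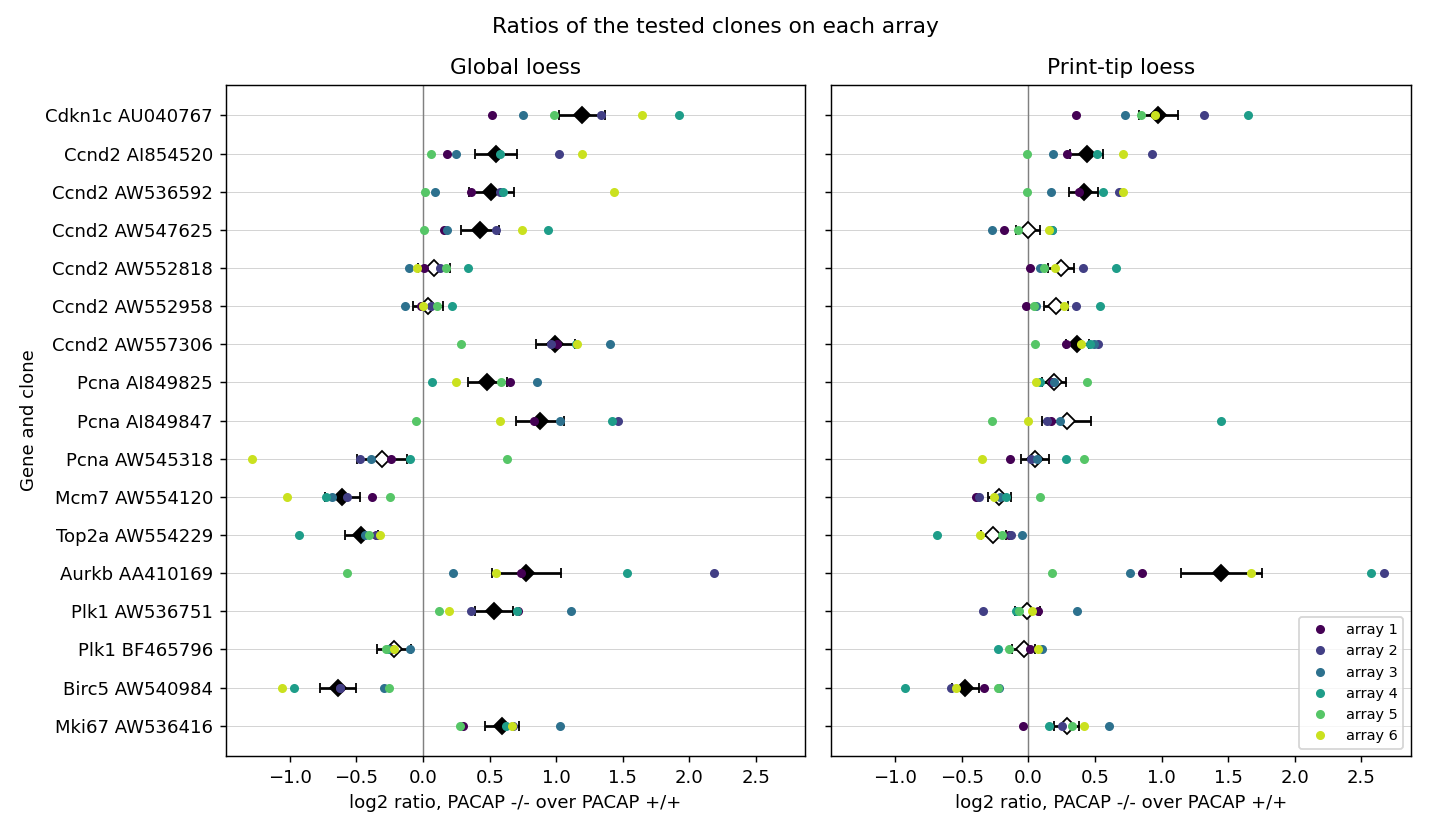
Log2 ratio of PACAP -/- over PACAP +/+ for each of the 17 tested clones (rows), after global loess (left) and print-tip loess (right). Coloured points are the 6 arrays, diamonds with bars the mean ± SE, filled where the adjusted p was below 0.05. Cdkn1c is among the clones that stay to the right of 0 on every array in both. Most clones, Cdkn1c included, lie nearer 0 in the right panel, while Aurkb and the Ccnd2 clones AW552818 and AW552958 lie farther from it.

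Ccnd2, the D-type cyclin on the opposite side of the same kinases, was higher in PACAP -/- glands for some of its 6 clones (chromosome 6). With global loess 4 of the 6 were called, all higher, and after print-tip loess 3 were. The clone AW557306 was farthest from 0 with global loess. Its intensities were 840 to 1632 for PACAP -/- (median 1223) and 104 to 461 for PACAP +/+ (median 243). The clone's ranges did not overlap, but green was the stronger channel overall before normalization. Its log2 ratio was 0.28 to 1.40 on the 6 arrays, lowest on array 5, with a mean of 0.99 ± 0.14 (SE, n = 6; 1.99-fold, adjusted p = 0.000832). After print-tip loess it was 0.37 ± 0.08 (1.29-fold, adjusted p = 0.0329), and the mean of its block 44 with global loess was 0.52.

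The 2 other Ccnd2 clones called in both normalizations lay in blocks 30 and 19, whose means were 0.07. AI854520 averaged 0.55 ± 0.16 (n = 6, adjusted p = 0.0202), and print-tip loess gave 0.44 ± 0.12 (adjusted p = 0.0458). AW536592 averaged 0.51 ± 0.17 (n = 6, adjusted p = 0.0324), and print-tip loess gave 0.42 ± 0.11 (adjusted p = 0.0398). Both were nearest 0 on array 5, and both lost the global call without array 2, 4 or 6, at 0.42 and 0.33 for the smallest values.

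The remaining 3 Ccnd2 clones showed how far clones of 1 gene could differ. AW547625, with the strongest signal of the 6 (3151 to 4717 for PACAP -/-, 576 to 3682 for PACAP +/+), was at 0.43 ± 0.14 (n = 6, adjusted p = 0.0357) with global loess, while print-tip loess gave -0.0031 ± 0.09 (adjusted p = 0.984). AW552818 and AW552958, both in block 7 of mean -0.25, were at 0.08 ± 0.12 and 0.04 ± 0.11 and were not called. After print-tip loess they were at 0.25 ± 0.10 and 0.21 ± 0.09, again not called (adjusted p = 0.11 and 0.145). Over all 6 clones the ratio ran from 0.04 to 0.99 with global loess and from -0.0031 to 0.44 with print-tip loess, and no clone was called lower. The clones AI854520, AW552818 and AW552958 are titled with an EST name that RefSeq lists as a synonym of Ccnd2.

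**Figure D2:**
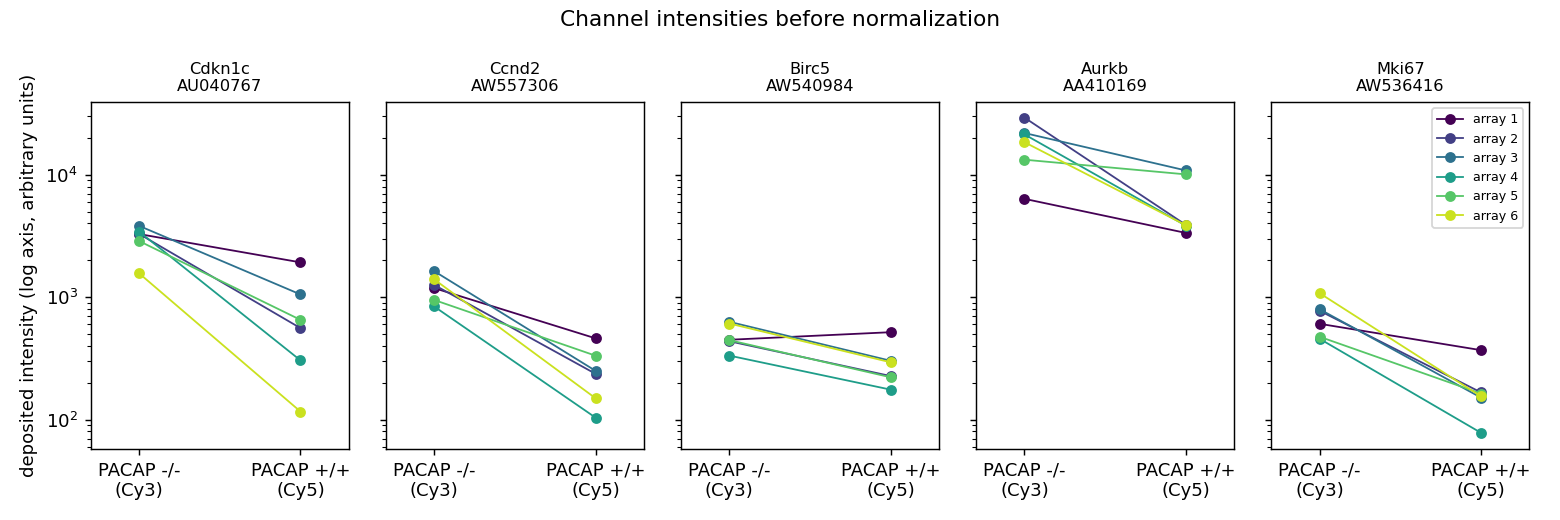
Deposited intensity (log axis, arbitrary units, local background already subtracted) of 5 clones in the Cy3 channel of PACAP -/- RNA and the Cy5 channel of PACAP +/+ RNA, with a line for each of the 6 arrays. The lines of Cdkn1c and Ccnd2 fall steeply to the right, and those of Birc5 are flatter, with array 1 turned the other way; channels were not yet balanced here.

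The member genes of DNA replication had no call that stood in both normalizations. Of the 3 Pcna clones (chromosome 2), AI849847 had intensities of 316 to 1131 for PACAP -/- (median 477) and 21.0 to 209 for PACAP +/+ (median 141). The clone's ranges did not overlap, but green was the stronger channel overall before normalization. It was at 0.88 ± 0.18 with global loess (n = 6; 1.84-fold, adjusted p = 0.00371), with array 5 just below 0 at -0.06. Its red signal, already free of local background, was smaller than that background on 2 of the 6 arrays, as was that of AI849825. After print-tip loess AI849847 was at 0.29 ± 0.18 (adjusted p = 0.299), where array 4 stood at 1.44 and the other arrays between -0.27 and 0.24. AI849825, titled a raf-related oncogene in the scanner files, averaged 0.48 ± 0.15 (n = 5, adjusted p = 0.0271), and 0.19 ± 0.09 once each block was fitted separately (adjusted p = 0.173). Both clones lie in block 48, the block of highest mean (0.56). The third clone, AW545318 in block 7, averaged -0.31 ± 0.19 (n = 6, adjusted p = 0.223), or 0.05 ± 0.10 with print-tip loess. Its red signal, already free of local background, was smaller than that background on 5 of the 6 arrays.

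Mcm7 (AW554120, chromosome 5) had intensities of 769 to 1154 for PACAP -/- (median 889) and 385 to 989 for PACAP +/+ (median 523). Its ratio was below 0 on all 6 arrays with global loess, from -1.02 to -0.25, and averaged -0.61 ± 0.13 (SE, n = 6; 1.52-fold lower, adjusted p = 0.00478). Print-tip loess left -0.22 ± 0.08 (adjusted p = 0.106), with array 5 above 0. Its block 9 had the fourth lowest mean of the 48, -0.40.

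Top2a (AW554229, chromosome 11) was 1 of the 2 searched genes with a TTTGAA match. With global loess its ratio was also below 0 on all 6 arrays, at -0.46 ± 0.12 (n = 6, 1.38-fold lower, adjusted p = 0.0139). Intensities were 533 to 962 for PACAP -/- (median 627) and 270 to 637 for PACAP +/+ (median 313). After print-tip loess it was below 0 on all 6 arrays as well, from -0.69 to -0.05, but at -0.26 ± 0.09 it was not called (adjusted p = 0.0901). The second Top2a clone, C77361, passed the quality filter on 1 array and was not tested, with a ratio of 0.20 there.

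Among the mitotic genes, the partners Aurkb and Birc5 passed in both normalizations with opposite signs. Birc5 (AW540984, chromosome 11) had intensities of 333 to 629 for PACAP -/- (median 447) and 176 to 518 for PACAP +/+ (median 260). After global loess its ratio was -0.62, -0.62, -0.29, -0.97, -0.25 and -1.06 on arrays 1 to 6, below 0 on each, although green intensities were the higher ones on 5 arrays before normalization. The mean was -0.64 ± 0.14 (SE, n = 6; 1.55-fold lower, adjusted p = 0.00501), and -0.47 ± 0.10 after print-tip loess (1.39-fold lower, adjusted p = 0.0309), again below 0 on every array. Its block 21 had a mean of -0.13. The call held in all 6 global fits with 1 array left out (-0.71 to -0.55) but not without arrays 2 and 4 together (-0.56, adjusted p = 0.0674).

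Aurkb (AA410169, chromosome 11) was the brightest member, at 6352 to 29260 for PACAP -/- and 3346 to 10830 for PACAP +/+. The ratio scattered more than that of any other member, from -0.57 on array 5 to 2.19 on array 2, with a mean of 0.78 ± 0.26 (n = 6; 1.71-fold, adjusted p = 0.0372). After print-tip loess it was above 0 on 6 of 6 arrays, from 0.18 on array 5 to 2.67 on array 2, and averaged 1.45 ± 0.30 (2.73-fold, adjusted p = 0.0287). Its block 1 has the lowest mean of all 48 blocks (-0.57). The global call was lost without array 1, 2, 4 or 6, at 0.49 for the smallest value, and without arrays 2 and 4 the mean was 0.24 (adjusted p = 0.493). In the authors' value table, centred on each array's median, the same clone had the opposite sign, -0.84 (adjusted p = 0.176). The scanner files title it serine/threonine kinase 5, and Stk5 is listed by RefSeq as a synonym of Aurkb.

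The 2 Plk1 clones (chromosome 7) differed in sign. AW536751 in block 48 was above 0 on all 6 arrays with global loess, averaging 0.53 ± 0.14 (n = 6; 1.45-fold, adjusted p = 0.0144), whereas print-tip loess gave -0.01 ± 0.10 (adjusted p = 0.971). BF465796 in block 34 was below 0 on all 5 arrays that measured it, averaging -0.22 ± 0.13 (adjusted p = 0.212), or -0.04 ± 0.09 with print-tip loess (adjusted p = 0.809). Its red signal, already free of local background, was smaller than that background on 3 of the 6 arrays. After print-tip loess the 95% intervals of the 2 clones were -0.22 to 0.21 and -0.24 to 0.17.

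Mki67 (AW536416, chromosome 7) was the other searched gene with a TTTGAA match. Its intensities were 457 to 1078 for PACAP -/- (median 690) and 78.0 to 369 for PACAP +/+ (median 159). The ranges did not overlap, but green was the stronger channel overall before normalization. The ratio was above 0 on all 6 arrays with global loess, from 0.28 to 1.02, and averaged 0.59 ± 0.13 (SE, n = 6; 1.51-fold, adjusted p = 0.00538). After print-tip loess 5 of 6 arrays were above 0, and the mean of 0.29 ± 0.09 missed the threshold (adjusted p = 0.0678). Its sign was thus opposite to that of Top2a in both normalizations, and neither gene was called in both. Their blocks differed in the same direction, with means of 0.29 for Mki67 (block 47) and -0.19 for Top2a (block 14). With block means subtracted, an alternative chosen after seeing the data, Mki67 was at 0.31 (adjusted p = 0.058) and Top2a at -0.26 (adjusted p = 0.0877).

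Counted over clones, 13 of the 17 (76.5%) were called with global loess, 10 higher and 3 lower, where 30.4% of all tested clones were called, 16.2% higher and 14.2% lower. After print-tip loess 6 of 17 (35.3%) were called, 5 higher and 1 lower, beside 11.4% of all clones, 6.74% higher and 4.62% lower. These 6 were called with the same sign in both, and they belong to 4 genes: Cdkn1c, Ccnd2 with 3 clones, Aurkb and Birc5. Clones of 1 gene share their target, so 17 clones are not 17 independent measurements. The median ratio of the 17 was 0.48 with global and 0.21 with print-tip loess, against 0.02 and -0.0018 over all tested clones. With arrays 2 and 4 left out, 3 of the 17 were called with global loess (Cdkn1c, Ccnd2 AW557306 and Pcna AI849825), where 7.13% of all clones were.

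The clones' global ratios followed their blocks. Of the 10 tested clones in blocks with a mean above 0, 9 had a ratio above 0, and of the 7 in blocks with a mean below 0, 4 had a ratio below 0. Across the 17 clones, which lay in 12 blocks and share the same 6 arrays, Pearson's r between the ratio and the block mean was 0.57 with global loess and -0.09 after print-tip loess, as a description. For 14 of the 17 clones the print-tip ratio was nearer 0. Subtracting each block's mean on each array after global loess, an alternative chosen after seeing the data, also gave 6 calls (15.9% of all clones), those of Cdkn1c (1.04), Ccnd2 AW557306 (0.48), AI854520 (0.49) and AW536592 (0.46), Aurkb (1.35) and Birc5 (-0.50).

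**Figure D3:**
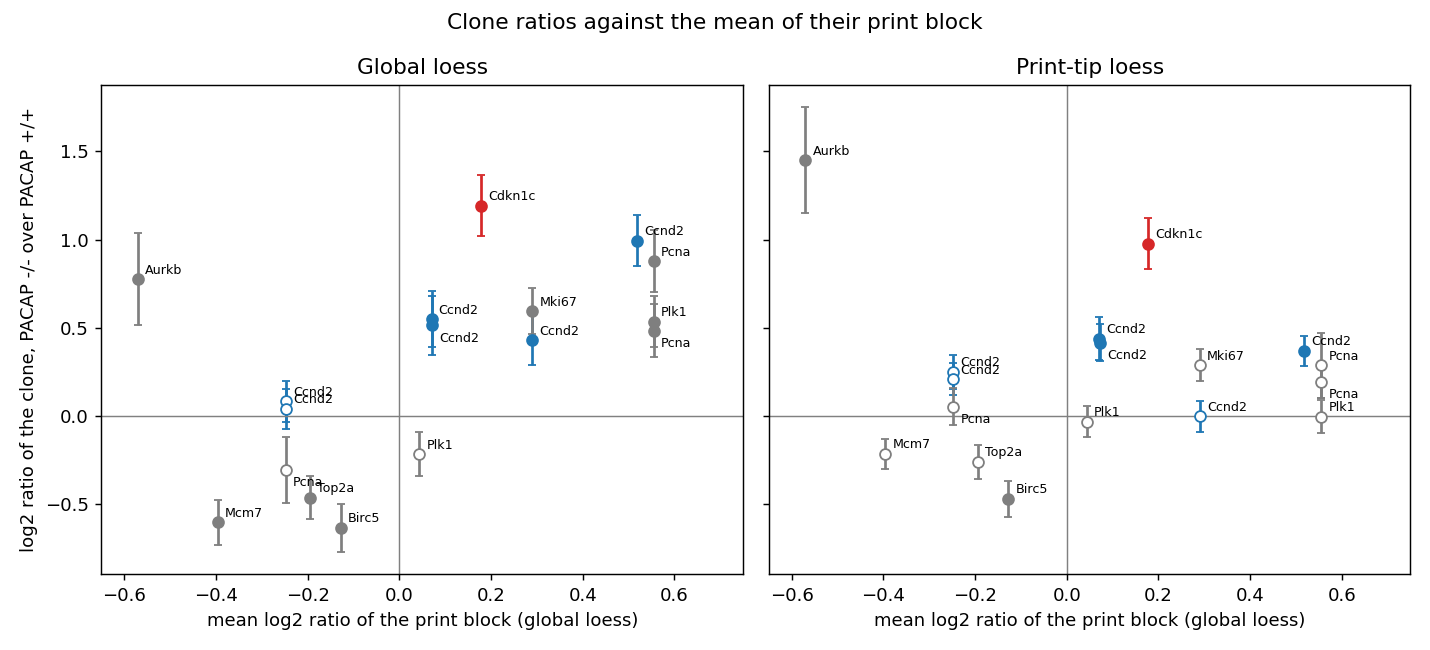
Mean log2 ratio of PACAP -/- over PACAP +/+ of each tested clone (y axis, bars SE, n = 5 or 6 arrays) against the mean ratio of its print block after global loess (x axis). Filled points had an adjusted p below 0.05, with Cdkn1c in red, Ccnd2 in blue and the other genes in grey; points climb to the right after global loess (left panel, r = 0.57) and not after print-tip loess (right panel, r = -0.09), where Aurkb and Cdkn1c stand highest.

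Other genes of the cell cycle, each represented by its clone of highest signal, mostly did not pass. The counts of this list and of the lists that follow stand beside 30.4% of all clones called with global loess and 11.4% after print-tip loess. Of 14 tested cyclins, cyclin-dependent kinases and G1/S regulators, 2 were higher and 2 lower with global loess, and limma called none after print-tip loess (4 had an unadjusted p below 0.05). Cdc25b, a phosphatase that activates those kinases, came closest, averaging 0.94 ± 0.24 (n = 6, adjusted p = 0.0116), or 0.80 ± 0.23 with print-tip loess (adjusted p = 0.0504). Of 27 tested genes of DNA replication and nucleotide supply, 3 were higher and 3 lower, and 1 each way after print-tip loess. The flap endonuclease gene Fen1 was higher in both (0.72 and 0.94), and Gmnn, which encodes the replication licensing inhibitor geminin, was lower in both (-0.75 and -0.41). The Gmnn clone was not called after a second background subtraction or in the authors' value table. Its SE was far larger in each of those than with global loess. With only spots of quality above 0.5 it was not tested. Among 32 tested mitosis and spindle genes, 5 were higher and 10 lower (46.9% called), but 2 and 1 after print-tip loess (9.38%), above the share of all clones with global loess and below it with print-tip loess. The kinetochore motor gene Cenpe (0.75 and 0.36) was higher in both and Cks2, which encodes a small kinase-binding subunit (-0.71 and -0.51, n = 5), lower in both. Incenp, which encodes the scaffold of the complex that holds Aurora B and survivin, was higher in both (0.89 and 0.72), on a clone titled neighbor of Punc E11. Of its 5 clones, 2 were called higher and 2 lower with global loess. No gene of these 3 lists, nor of the brakes and imprinted genes below, kept a print-tip call without array 2, 3, 4 or 6. The median ratio of the 3 lists lay between -0.04 and 0.00025 with global loess and between -0.07 and 0.01 after print-tip loess.

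Brakes on the cell cycle other than Cdkn1c did not share its direction as a list. Of 13 tested, 2 were higher and 3 lower with global loess, and 1 was higher and 2 lower after print-tip loess. Btg2, an antiproliferative gene, was higher in both, at 1.17 ± 0.23 (n = 6, adjusted p = 0.00357) and 0.79 ± 0.21 (adjusted p = 0.0435), and both of its tested clones were called higher with global loess. Chek1, the DNA damage checkpoint kinase gene, was lower in both (-0.34 and -0.52). The list's median was 0.09 with global loess and -0.03 after print-tip loess. Cdkn1b, which encodes p27Kip1, the inhibitor most like p57Kip2 and chosen as an example after its value was seen, had ratios of 0.09 with global loess (adjusted p = 0.637) and -0.12 with print-tip loess (adjusted p = 0.469).

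Cdkn1c lies in an imprinted cluster on distal chromosome 7. Of 22 tested imprinted genes and neighbours of Cdkn1c, 3 were higher and 1 lower with global loess, and 2 each way after print-tip loess, which is 18.2% in both, below the share of all clones with global loess (30.4%) and above it with print-tip loess (11.4%). Those higher with global loess were Meg3, Sgce and Th, the last also a chromaffin cell marker. Meg3, a maternally expressed noncoding RNA gene of another cluster, was higher in both, at 0.63 ± 0.16 (n = 6, adjusted p = 0.0119) and 0.86 ± 0.17 (adjusted p = 0.0277), although 2 of its 8 clones were called higher with global loess and 6 were not. Tspan32, a tetraspanin gene near Cdkn1c, was lower in both (-0.61 and -0.56). Of the tested genes nearest to Cdkn1c on either side, named after their values were seen, Kcnq1 had ratios of 0.26 with global loess and -0.31 with print-tip loess, and the second was called lower (adjusted p = 0.0412). Slc22a18 (-0.20 and -0.05) and Phlda2 (0.04 and 0.21) were not called in either. H19, also named after its values were seen, was at -0.12 with global loess and not called (adjusted p = 0.537). With print-tip loess it was at 0.46 and called higher (adjusted p = 0.0412), although 2 of its 7 clones were called lower with global loess.

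**Figure D4:**
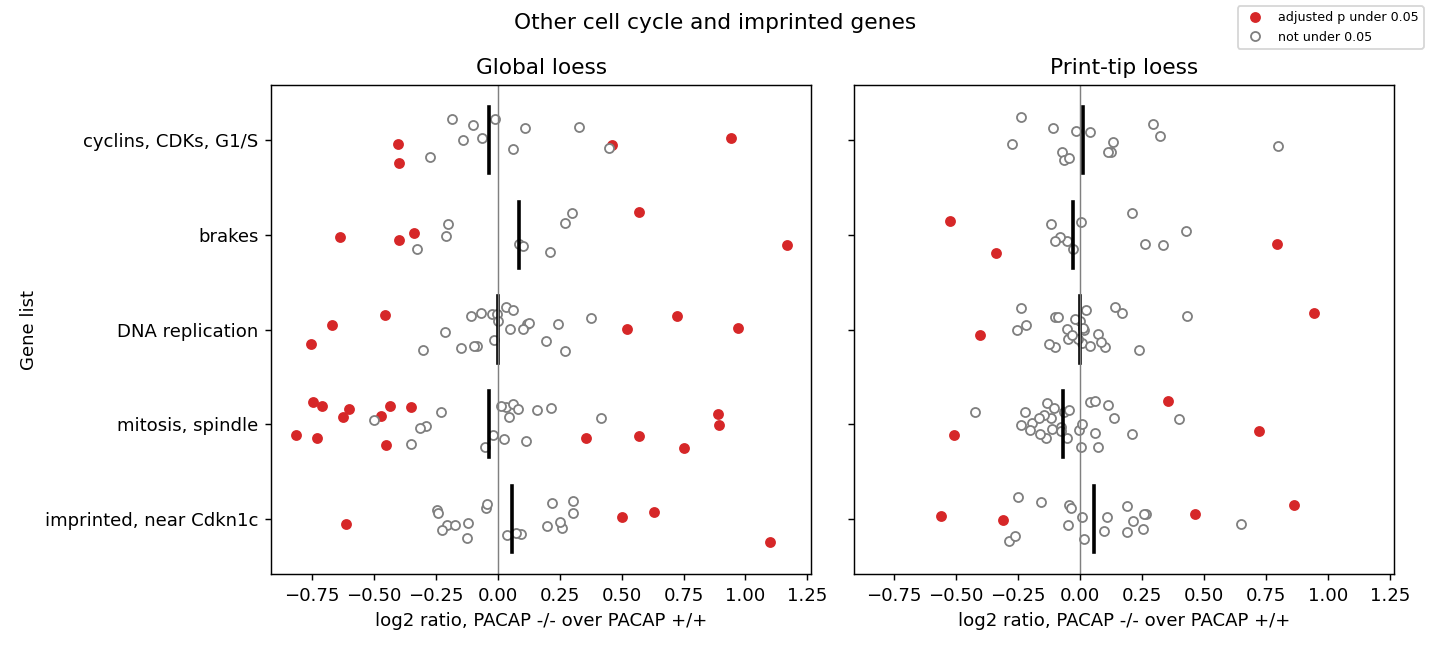
Log2 ratio of PACAP -/- over PACAP +/+ for the tested genes of 4 other cell cycle lists and of imprinted genes and neighbours of Cdkn1c, after global loess (left) and print-tip loess (right). Each point is a gene, red where the adjusted p was below 0.05, and the black bar is the list's median, which lies between -0.07 and 0.09 in all 5 lists and both panels.

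Over the 6 arrays, the genes whose ratios were most like those of Cdkn1c by root mean square difference, out of 9030 named genes, were Slc35b2 (0.129), Sp100 (0.186), Chd6 (0.209), Rpl4 (0.212) and Vps35l (0.213). They are a Golgi sulphate donor transporter gene, a nuclear body protein gene, a chromatin remodeller gene, a ribosomal protein gene and a retriever complex gene. Each was lowest on array 1 or 3 and highest on array 4 or 6. Slc35b2, Sp100 and Rpl4 were also called after print-tip loess (0.63, 0.78 and 0.90), and Chd6 and Vps35l were not (0.55 and 0.51). The genes were picked for this likeness, so these calls are a description. The matching used global loess ratios, which also carry block position. Slc35b2, Sp100 and Vps35l lay in block 28 (mean 0.40), Chd6 in block 36 (0.49) and Rpl4 in block 16 (0.22). Rpl4, Vps35l and Slc35b2 had 6, 3 and 2 tested clones, of which only the nearest is given.

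Markers of the cell types of the gland were also measured, since whole-gland RNA does not separate cortex from medulla. Of 6 tested chromaffin cell markers, 4 were higher and 1 lower with global loess, and 2 and 1 after print-tip loess, and the list's median ratio on single arrays ran from -0.07 to 1.49 and from 0.05 to 0.89. Chgb and Scg2, which encode granule proteins, were higher in both (1.01 and 0.64, or 0.70 and 0.89 after print-tip loess), although the scanner files title the Scg2 clone patched homolog, and Slc18a1, the vesicular monoamine transporter gene, was lower in both (-0.41 and -0.46, n = 5). Of 7 tested adrenal cortex markers, 4 were higher with global loess and 3 after print-tip loess, among them Hsd3b1, a steroid-synthesis enzyme gene (1.60 and 1.40, n = 5), and Nr5a1, the transcription factor gene of steroid-producing cells (0.64 and 0.62). Their array medians ran from 0.07 to 1.44 with global loess, and from -0.08 to 1.55 after print-tip loess, where 5 of the 6 arrays were above 0. Cdkn1c and Ccnd2 thus moved in the same direction as several of these markers, and the part of cell composition in their ratios was not tested.

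Of other cell types, 5 of 7 tested capsule and fibroblast markers were called with global loess, 3 higher and 2 lower, and 2 and 1 after print-tip loess. Col1a1 (1.64 and 0.91) and Nr2f2 (1.20 and 0.51) were higher in both. With global loess alone Col1a2 (0.61 and 0.24) was higher, and Col3a1 (-0.50 and -0.16) and Dcn (-0.51 and -0.17) were lower. After print-tip loess alone Pdgfra was lower (0.20 and -0.32). Of 4 Dcn clones, 2 were called higher and 1 lower with global loess, and of 3 Col3a1 clones 1 each way. With global loess 1 of the 3 Col1a1 clones and both Nr2f2 clones were called higher. Among 5 macrophage markers 2 were higher with global loess and 1 after print-tip loess. The complement gene C1qb was higher in both (0.94 and 0.88), on 1 of its 2 clones with global loess. Of 6 endothelial markers 2 were higher with global loess and limma called none after print-tip loess (2 at an unadjusted p below 0.05), Emcn being at 0.58 and 0.31. The lymphocyte marker Ptprc was lower with global loess alone (-0.47 and -0.18, n = 5), 1 of 3 tested. None of 2 erythroid and 4 Schwann and sustentacular markers was called by limma (2 and 1 had an unadjusted p below 0.05 with global loess), the smallest p belonging to Alas2 (-0.42, adjusted p = 0.0547) and Fabp7 (-0.37, adjusted p = 0.0683). With print-tip loess Alas2 was at -0.13 (adjusted p = 0.406) and Fabp7 at -0.07 (adjusted p = 0.732).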

How the data were processed

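Per the series' design text, adrenal total RNA was labelled with Cy3 or Cy5, hybridised to NIMH Mouse 36K cDNA arrays and scanned. Software versions are not given in the sources used here. The deposited intensity columns were already free of local background, since 768 positions without a clone showed a median of 1.0 in red and in green. The deposited calibrated ratio equals red over green after division by a constant for the array, and served only to find that constant. The deposited quality score of each ratio runs from 0 to 1. The values in the series table are log2 ratios, deposited as red over green, with background subtracted a second time and no centring (array medians -2.59 to -0.10).

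Log2 ratios of green (PACAP -/-) over red (PACAP +/+) were formed from the intensities, with values below 1 raised to 1. The 1048 spots for controls or without a clone were dropped, as were spots whose quality did not exceed 0.3. Ratios, after global or print-tip loess, were tested with limma 3.58.1 under R 4.3.3 (lmFit, eBayes). The simulated data on which this step was checked held no block or dye effect, so the check does not cover those. Genes were named by linking 99.8% of 35873 value table rows to spots by their values (within 0.002), and 22364 clones had 1 gene. Symbols were updated by gene ID through RefSeq (GRCm38.p6), which held 11616 of 11837 genes. Python 3.11.15 with pandas 2.3.3 made the tables.

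The 9 genes, the gene lists and the tests were chosen with earlier results of these data known. The text names all members and, from each list, up to 3 genes of largest ratio called in both normalizations, or else the gene of smallest p. For Cdkn1c the 5 nearest genes are named. The number of arrays, 6, limits the precision. Alternatives were print-tip loess, median centring, other quality filters, a second background subtraction, the value table, a minimum of 6 arrays, leaving out arrays and gene means over clones.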

Additional observations from a re-analysis of the deposited data

Results flagged for a closer look

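Each tested clone was examined on the arrays in both normalizations for 1 array far from the others, by Dixon's criterion, which chance meets in about 1 of 20 groups. Of 34 such groups 2 met it. For the Pcna clone AI849847 after print-tip loess, array 4 was the highest at 1.44, and its gap to the next array was 0.702 of the whole range. For the Top2a clone AW554229 after global loess, array 4 was the lowest at -0.93, with a gap of 0.814 of the range; without array 4 the clone was at -0.37 and no longer called (adjusted p = 0.0665). Array 4 had the weakest red signal of the 6, and its part in both values was not tested.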

How the results depend on the processing

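The ratios are limited by the 6 arrays, the lack of a dye exchange, block position and weak red signal, and the cause of the shifts below was not tested. The count of called clones, 8735 with global loess, was 3260 after print-tip loess, 2407 after a second background subtraction, 2094 without arrays 2 and 4 (71.9% of them higher, against 53.2%), 81 without them after print-tip loess, and 4574 with block means subtracted. The value table gave 9917 (73.6% higher, with a median ratio of 0.43 over all clones). Leaving out 1 array gave 4480 to 8658, or 1 to 3769 after print-tip loess. The count of called member clones, 13 with global loess, was 6 after print-tip loess or with block means subtracted, 4 after a second background subtraction, 3 without arrays 2 and 4, and 1 without them after print-tip loess, all among the 13. The value table called 5, of which 3 were among the 13. Leaving out 1 array gave counts of 7 to 13, or 0 to 6 after print-tip loess. The 13 called without array 5 were 12 of the original clones and Pcna AW545318.

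For the lists, in the order cyclins, brakes, replication, mitosis and imprinted genes, the main counts were 4, 5, 6, 15 and 4. They were 0, 3, 2, 3 and 4 after print-tip loess, 0, 1, 3, 5 and 0 after a second background subtraction, 0, 1, 3, 3 and 0 without arrays 2 and 4, and 0 in all 5 without them after print-tip loess. With block means subtracted cyclins, replication and mitosis had 1, 3 and 6. In the value table cyclins, brakes, mitosis and imprinted genes had 2, 2, 5 and 2, and without a quality filter brakes had 3. With 1 array left out the 5 lists had at least 1, 2, 5, 7 and 2 and at most 4, 5, 6, 15 and 4, or 0 in each to at most 2, 3, 3, 4 and 5 after print-tip loess.

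Signs turned as follows. Pcna AW545318, not called with global loess, was at 0.05 after print-tip loess and 0.22 after a second background subtraction. After print-tip loess Ccnd2 AW547625 was at -0.00 (-0.09 without arrays 2 and 4, -0.04 to 0.05 with 1 array left out, 0.33 to 0.51 likewise with global loess) and Plk1 AW536751 at -0.01 (-0.08 to 0.06, 0.42 to 0.62 likewise with global loess). With block means subtracted Plk1 AW536751 was at -0.03 and Pcna AI849825 at -0.06. In the value table Aurkb was at -0.84, Ccnd2 AI854520 at -0.2, AW536592 at -0.02, AW547625 at -0.92 and the uncalled AW552818 and AW552958 at -1.12, so that 5 of the 6 Ccnd2 clones turned. The same table had Pcna AW545318 at 4.15, Plk1 BF465796 at 2.42, Ptprc at 3.39 (0.15 after a second background subtraction), C1qb and Chgb at -0.21, Fen1 at -0.91, Hsd3b1 at -0.08, Incenp at -0.49, Meg3 at -0.77, Nr5a1 at -0.25 and Scg2 at -0.53. Cdkn1c was at 0.38 there and not called. The uncalled AW552818 and AW552958 were also below 0 with median centring (-0.16 and -0.19) and AW552958 without arrays 2 and 4 (-0.01), and the uncalled Plk1 BF465796 was above 0 without a quality filter (0.04) and without arrays 2 and 4 after print-tip loess (0.01). Every ratio already pairs the 2 genotypes hybridised to 1 array, so no further replicate block could be added.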
